A study of Homo sapiens with 12 samples.

Results

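The 10 genes EGR1, EGR2, EGR3, IER2, IER3, IER5, NR4A1, NR4A2, NR4A3 and CCN2 were followed across 4 groups of THP-1 cells. They were taken by symbol from count tables of 57500 gene identifiers, and each symbol matched exactly 1 identifier. All 10 passed the low-count filter that left 16402 genes for testing, and they also passed it when only the libraries without LPS were used.

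THP-1 is an established human monocytic leukaemia line, and the cells of every group carried a lentiviral non-target shRNA, the usual control construct of knockdown work. RNA was sequenced after poly(A) selection, with 3 libraries in each group. The groups were 10% CO2 with LPS, 5% CO2 with LPS, 10% CO2 alone and 5% CO2 alone. Cells spent 4 h at their CO2 level in buffered medium, and LPS, a bacterial cell wall component sensed by TLR4, was present at 2.5 µg/ml for the last 2 h. The study asked how buffered hypercapnia, a raised CO2 level with pH held by buffering, alters transcription in monocytes at rest and under this inflammatory stimulus.

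Immediate early genes are transcribed soon after a cell receives a signal, from transcription factors that are already present, so they need no new protein to be switched on. Serum response factor with its ETS partners, CREB and NF-κB are the usual factors, fed by the MAP kinases and, in monocytes, by TLR4. Their mRNAs are mostly short-lived, and several of the proteins (EGR and NR4A) are themselves transcription factors that set off later waves of transcription. In bulk RNA, fewer expressing cells and less RNA per cell cannot be told apart.

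Total counts were 17.1 to 22.2 M per library, so that 3 counts correspond to 0.135 to 0.175 CPM, the library-size scale used here with TMM factors. All 11 monocyte markers examined had a mean above 1 CPM in every group, with a summed level of 677 to 986 CPM. Of the 5 fibroblast markers only COL1A1 had a mean above 1 CPM (1.76 CPM), and the 5 T cell markers summed to at most 2.22 CPM. The 5 epithelial markers summed to at most 3.01 CPM and the 5 erythroid ones to at most 0.179 CPM, with HBA1 at 0 in every library. The 5 B cell markers summed to 14.4 to 22.9 CPM, of which PAX5 made up 13.9 CPM on average. The 4 endothelial markers summed to 201 to 415 CPM, of which PECAM1, which monocytes also express, made up 298 CPM on average. The mitochondrial share of counts was 2.28 to 4.15% at 10% CO2 with LPS and 1.28 to 1.78% at 5% CO2 with LPS. Without LPS it was 2.01 to 3.05% at 10% CO2 and 1.31 to 1.96% at 5% CO2. The labels do not state that the 3 replicates are separate cultures, and the p-values therefore reflect the spread between libraries, which may be technical.

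Promoter sequence was matched for 7 of the 10 genes (10 windows) in a RefSeq table on GRCh38.p14. EGR3, IER3 and NR4A2 had no entry. The 4 stretches below are shown because they hold motif classes through which immediate early promoters are known to be read. All 10 genes rose with LPS, so the rise does not set these 4 apart. Each is written 5′ to 3′ on the gene's own strand, and capitals mark every match to a searched motif. They come from chr5:138465269-138465428 on the plus strand (EGR1), chr10:62816407-62816516 on the minus strand (the third listed start of EGR2), chr9:99821735-99821824 on the plus strand (NR4A3) and chr6:131951453-131951552 on the minus strand (CCN2).
EGR1: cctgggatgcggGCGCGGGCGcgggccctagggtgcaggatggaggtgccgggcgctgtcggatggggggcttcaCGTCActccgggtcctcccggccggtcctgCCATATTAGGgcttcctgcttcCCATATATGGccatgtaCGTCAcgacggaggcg
EGR2: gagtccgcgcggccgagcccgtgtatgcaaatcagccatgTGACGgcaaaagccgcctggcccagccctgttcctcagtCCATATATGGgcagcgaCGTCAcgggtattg
NR4A3: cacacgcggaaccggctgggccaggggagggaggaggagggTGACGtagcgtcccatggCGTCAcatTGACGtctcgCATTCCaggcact
CCN2: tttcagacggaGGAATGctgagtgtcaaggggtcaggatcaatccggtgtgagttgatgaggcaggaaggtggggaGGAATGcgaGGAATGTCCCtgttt

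The EGR1 stretch held 2 CArG boxes, the sequence bound by serum response factor, at bases −105 to −96 and −83 to −74 from the start. It also held 2 CRE cores (TGACG, a shortened form of the site that CREB reads) and 1 match to the EGR proteins' own site (GCGNGGGCG). EGR2 held 1 CArG box between 2 CRE cores. NR4A3 had 3 CRE cores in the printed stretch and another at −25 to −21, with 1 TEAD site (GGAATG). Of the NR4A3 window, 30 bases lie in exons of the gene in the reference annotation, and the core at −25 to −21 is among them. CCN2 had 3 TEAD sites, and the last of them overlapped a match to the NF-κB consensus. Of the remaining windows, that of IER2 held 1 CRE core, 1 EGR2 window held 2 TEAD sites, another EGR2 window held an NF-κB match, and those of IER5 and NR4A1 held none of the 7 motifs. Both strands were searched in the 250 bases before each start. Over 35116 such windows of all genes, a CArG box was found in 1.16%, a CRE core in 21.2%, an EGR site in 8.41%, a TEAD site in 11.9% and an NF-κB match in 9.96%. A full CRE (TGACGTCA, in 1.65% of windows) and the NBRE read by NR4A receptors (AAAGGTCA, in 1.05%) were in no window of these genes. These matches describe the letters in the windows and were not tested for binding.

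LPS raised all 10 genes at both CO2 levels, from less than 2-fold for IER2 to more than 100-fold for EGR2, NR4A3 and CCN2 at 10% CO2. The count was 10 of 10 higher at 10% CO2, where 16.6% of all tested genes were higher, and 10 of 10 at 5% CO2, where 11.8% were. In each of these 20 comparisons every library with LPS lay above every library without it, which held for 21.9% of tested genes at 10% CO2 and 18.9% at 5% CO2. The median log2 fold change of the genes was 5.34 at 10% CO2 and 4.61 at 5% CO2, beside −0.02 and −0.01 over all tested genes. The plot of levels by group shows these values library by library.

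**Figure D1:**
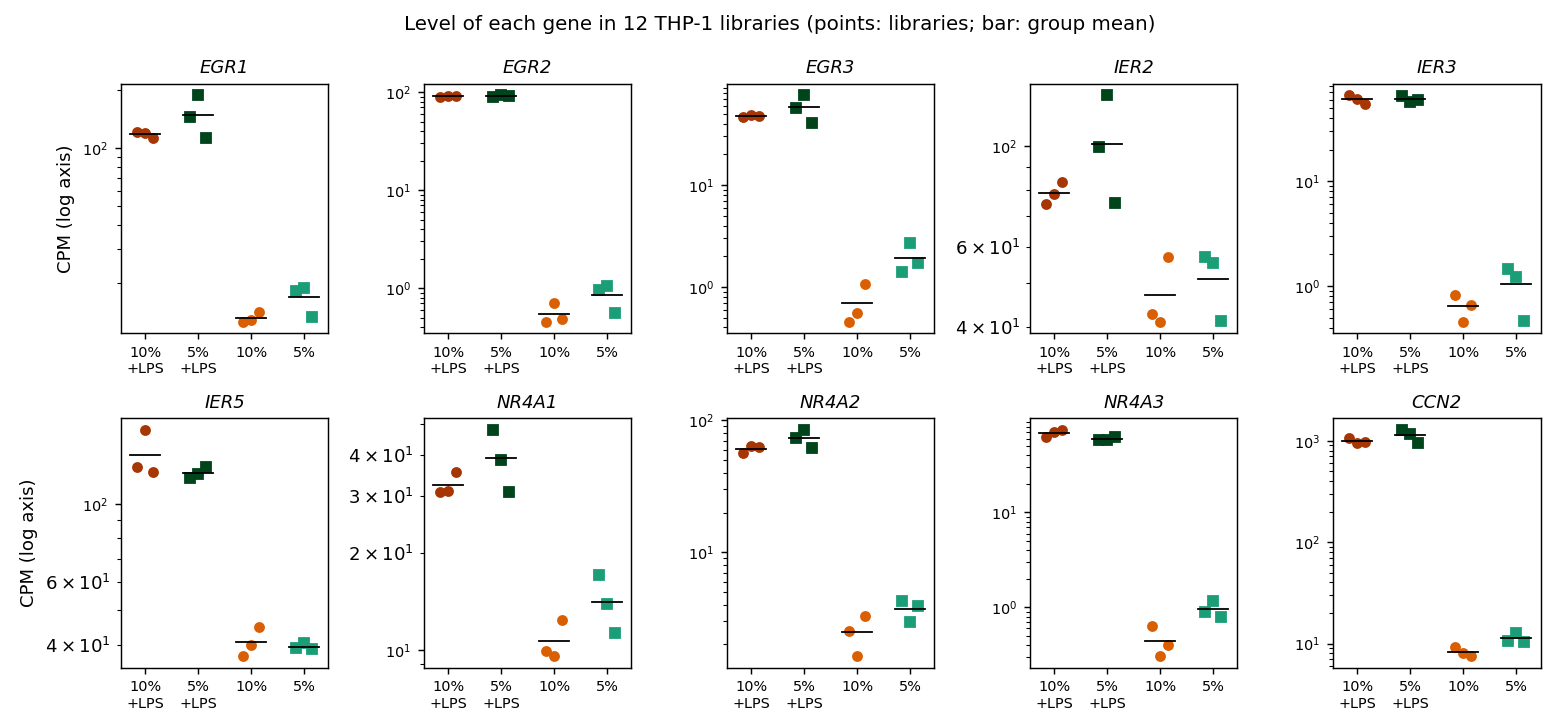
Level of each gene in CPM on a log axis (TMM-scaled), with 1 point per library and a bar at the group mean, in 4 groups of 3 libraries. In all 10 panels the 6 libraries with LPS lie above the 6 without it, and the CO2 groups lie close together beside that difference except for IER2, whose means at 10% and 5% CO2 with LPS were 78.9 and 101 CPM.

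The EGR genes encode zinc finger transcription factors that share a GC-rich target site. Positions are those of the count tables on GRCh38, running over all exons of a gene. EGR1 (ENSG00000120738, chr5:138465490-138469315, plus strand), the one most widely induced by growth and stress signals, stood at 120.3, 119 and 113 CPM at 10% CO2 with LPS, against 12.6, 12.8 and 14.1 CPM at 10% CO2 alone. At 5% CO2 it stood at 145.5, 188 and 113 CPM with LPS, against 18.2, 18.9 and 13.3 CPM without. Of EGR1, EGR2 and EGR3, EGR1 had the smallest rise, and its LPS libraries at 5% CO2 were spread widely. Its log2 fold change was 3.16 ± 0.17 (SE) at 10% CO2 (adjusted p = 3.73e-10) and 3.15 ± 0.17 at 5% CO2 (adjusted p = 3.90e-10).

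EGR2 (ENSG00000122877, chr10:62811996-62919900, minus strand), which supports macrophage differentiation and limits T cell activation, was close to absent at rest. Its level was 88.6, 92.4 and 92.1 CPM at 10% CO2 with LPS, against 0.456, 0.710 and 0.486 CPM at 10% CO2 alone. With LPS at 5% CO2 it was 90.4, 93.8 and 91.3 CPM, against 0.949, 1.05 and 0.557 CPM without. All 6 LPS libraries of EGR2 lay within a narrow band at both CO2 levels. The rise was 7.37 ± 0.16 on the log2 scale at 10% CO2 (165-fold, adjusted p = 2.76e-17) and 6.76 ± 0.15 at 5% CO2 (108-fold, adjusted p = 4.32e-17).

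EGR3 (ENSG00000179388, chr8:22687659-22693302, minus strand), a close relative of EGR2 that shares its role in restraining T cells, reached 46.4, 49.1 and 47.8 CPM at 10% CO2 with LPS, against 0.456, 0.558 and 1.06 CPM at 10% CO2 alone. At 5% CO2 the values were 57.6, 76.5 and 40.6 CPM with LPS, against 1.40, 2.70 and 1.72 CPM without. The resting libraries at 10% CO2 all lay below those at 5% CO2, while the LPS libraries at 10% CO2 lay inside the range of those at 5% CO2. The log2 fold change was 6.08 ± 0.31 at 10% CO2 (adjusted p = 3.45e-09) and 4.93 ± 0.27 at 5% CO2 (adjusted p = 9.44e-09). An unnamed antisense gene with 9 counts over all libraries shares 164 exon bases with EGR3. The strand setting of the counting is not given in the sources used here, so reads of such pairs cannot be told apart.

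The NR4A genes encode orphan nuclear receptors that are active without a known hormone and are controlled mainly through their own transcription. NR4A1 (NUR77, ENSG00000123358, chr12:52022832-52059507, plus strand), a receptor required for patrolling monocytes in mice, stood at 30.8, 31.0 and 35.6 CPM at 10% CO2 with LPS, against 9.93, 9.53 and 12.4 CPM at 10% CO2 alone. At 5% CO2 it was at 48.0, 38.7 and 30.8 CPM with LPS, against 17.04, 13.8 and 11.3 CPM without. Its rise was the smallest of the 3 receptors, 1.61 ± 0.17 at 10% CO2 (adjusted p = 7.52e-07) and 1.48 ± 0.16 at 5% CO2 (adjusted p = 2.42e-06) on the log2 scale. The antisense gene NR4A1AS shares 754 exon bases and had 7 counts over all libraries.

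NR4A2 (NURR1, ENSG00000153234, chr2:156324432-156342348, minus strand), best known from dopamine neurons and also induced by TLR4 signals in macrophages, reached 56.8, 64.0 and 62.5 CPM at 10% CO2 with LPS, against 2.55, 1.62 and 3.31 CPM at 10% CO2 alone. With LPS at 5% CO2 it was at 73.6, 85.0 and 62.2 CPM, against 4.25, 2.98 and 3.95 CPM without. The groups with and without LPS were far apart, and the CO2 groups overlapped at each LPS level. The log2 fold change was 4.60 ± 0.19 at 10% CO2 (adjusted p = 1.07e-12) and 4.29 ± 0.18 at 5% CO2 (adjusted p = 2.10e-12).

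NR4A3 (NOR1, ENSG00000119508, chr9:99821855-99866891, plus strand) had the lowest mean resting level per exon length of the 10 genes and the second-largest rise at 10% CO2. Its level was 63.0, 71.0 and 74.4 CPM at 10% CO2 with LPS, against 0.638, 0.304 and 0.397 CPM at 10% CO2 alone, where a library held as few as 6 counts. At 5% CO2 the values were 58.2, 58.5 and 61.7 CPM with LPS, against 0.904, 1.16 and 0.789 CPM without. NR4A3 was the only one of the 10 genes whose CO2 groups were apart at both LPS levels, lower at 10% CO2 without LPS and higher with it. The rise was 7.25 ± 0.17 on the log2 scale at 10% CO2 (152-fold, adjusted p = 9.31e-17) and 5.97 ± 0.16 at 5% CO2 (62.9-fold, adjusted p = 4.57e-16).

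The IER genes are grouped by how they were found and differ in function. IER2 (ENSG00000160888, chr19:13150415-13154908, plus strand), a nuclear protein linked to cell motility, was the gene least moved by LPS, at 74.7, 78.6 and 83.4 CPM at 10% CO2 with LPS, against 42.8, 41.1 and 57.1 CPM at 10% CO2 alone. At 5% CO2 it stood at 99.2, 129 and 74.8 CPM with LPS, against 57.0, 55.2 and 41.2 CPM without. It was already well expressed at rest, and its lowest LPS library, at 74.7 CPM, stood above its highest resting one, at 57.1 CPM. An unnamed antisense gene shares 946 exon bases with IER2 and had 0 counts over all libraries. The log2 fold change was 0.75 ± 0.19 at 10% CO2 (adjusted p = 0.00724) and 0.98 ± 0.19 at 5% CO2 (adjusted p = 0.0016).

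IER3 (IEX-1, ENSG00000137331, chr6:30743199-30744554, minus strand), an NF-κB target that acts on cell survival, was at 66.3, 61.0 and 54.7 CPM at 10% CO2 with LPS, against 0.820, 0.456 and 0.662 CPM at 10% CO2 alone. At 5% CO2 it was at 64.3, 56.4 and 59.5 CPM with LPS, against 1.45, 1.21 and 0.464 CPM without. Its LPS levels at 10% and 5% CO2 overlapped, and the resting libraries were all near or below 1.45 CPM. The rise was 6.53 ± 0.22 on the log2 scale at 10% CO2 (92.1-fold, adjusted p = 3.85e-14) and 5.85 ± 0.20 at 5% CO2 (57.6-fold, adjusted p = 9.81e-14). IER3-AS1, which shares 359 exon bases with it, had 4 counts over all libraries.

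IER5 (ENSG00000162783, chr1:181088712-181092899, plus strand), which brings the phosphatase PP2A to HSF1 and so activates heat shock genes, stood at 127, 162 and 123 CPM at 10% CO2 with LPS, against 37.1, 40.1 and 44.8 CPM at 10% CO2 alone. With LPS at 5% CO2 it was at 118, 121.5 and 127 CPM, against 39.2, 40.4 and 38.9 CPM without. Resting levels of IER5 varied little between libraries, with a coefficient of variation of 9.61% at 10% CO2 and 1.93% at 5% CO2. Its log2 fold change was 1.76 ± 0.10 at 10% CO2 (adjusted p = 1.15e-10) and 1.63 ± 0.10 at 5% CO2 (adjusted p = 4.30e-10).

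CCN2 (CTGF, ENSG00000118523, chr6:131948176-131951373, minus strand) is a secreted matricellular protein, best known as a product of fibroblasts and endothelial cells and as a target of YAP with TEAD factors. It reached 1053, 943 and 980.4 CPM at 10% CO2 with LPS, against 9.34, 8.01 and 7.46 CPM at 10% CO2 alone. At 5% CO2 it reached 1284, 1154 and 959 CPM with LPS, against 10.7, 12.7 and 10.4 CPM without. Every LPS library of CCN2 was far above every library without LPS, while its CO2 groups were apart only at rest. The rise was 6.91 ± 0.14 on the log2 scale at 10% CO2 (119.9-fold, adjusted p = 5.70e-18) and 6.66 ± 0.13 at 5% CO2 (101-fold, adjusted p = 8.98e-18). The summed fibroblast markers were at 3.53 to 4.39 CPM at 10% CO2 with LPS, 2.89 to 3.90 CPM at 5% CO2 with LPS, 1.37 to 1.99 CPM at 10% CO2 and 1.65 to 2.44 CPM at 5% CO2. COL1A2, COL3A1, DCN and LUM, the other defining markers besides COL1A1, had means of 0.0677, 0.142, 0.298 and 0.441 CPM, and their part in the rise of CCN2 was not tested. An unnamed antisense gene that shares 195 exon bases with CCN2 had 296 counts over all libraries, beside 121883 for CCN2.

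**Figure D2:**
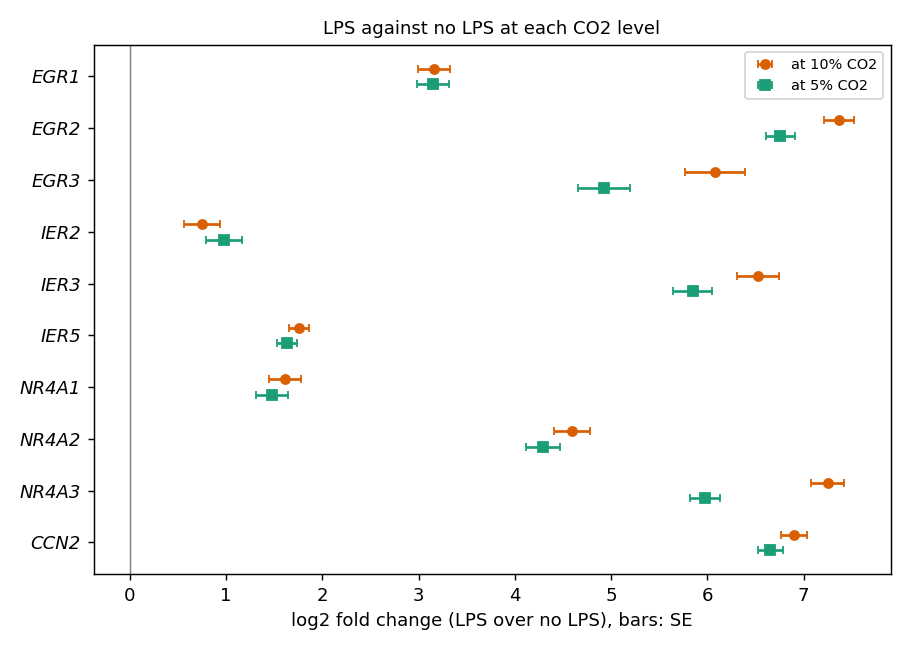
Log2 fold change of LPS over no LPS for each gene (horizontal axis), at 10% CO2 (circles) and 5% CO2 (squares), with bars for the standard error of the fit. All 20 points lie above 0, from 0.75 for IER2 at 10% CO2 to 7.37 for EGR2 at 10% CO2.

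Per kilobase of exon, CCN2 was at 424 ± 23.9 CPM per kb at 10% CO2 with LPS and 484 ± 69.8 CPM per kb at 5% CO2 with LPS (SD, n = 3). On means without TMM scaling (390.1 CPM per kb) it was at rank 93 of 35337 genes with any count at 10% CO2 with LPS. At 5% CO2 with LPS (458.7 CPM per kb, also unscaled) it was at rank 71 of 36089. By the TMM-scaled levels, the next of the 10 at 10% CO2 with LPS were IER3 at 44.7 ± 4.26, EGR1 at 37.4 ± 1.25 and IER5 at 32.8 ± 5.05 CPM per kb. At 5% CO2 with LPS they were EGR1 at 47.5 ± 12, IER3 at 44.3 ± 2.93 and IER2 at 32.9 ± 8.90 CPM per kb. NR4A1 was the lowest of the 10 with LPS, at 4.45 ± 0.38 CPM per kb at 10% CO2 and 5.37 ± 1.18 CPM per kb at 5% CO2. Several neighbours differed by less than the sum of both SDs: EGR1 and IER5, IER2 and EGR2, and NR4A3 and EGR3 at 10% CO2, and EGR1 and IER3, IER3 and IER2, IER2 and IER5, NR4A2 and EGR3, and EGR3 and NR4A3 at 5% CO2.

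At rest the order was another. IER2 led, at 15.3 ± 2.85 CPM per kb at 10% CO2 and 16.7 ± 2.81 CPM per kb at 5% CO2, followed by IER5 at 9.71 ± 0.93 CPM per kb at 10% CO2 and 9.43 ± 0.18 CPM per kb at 5% CO2. NR4A3 had the lowest mean, at 0.0707 ± 0.0273 CPM per kb at 10% CO2 and 0.151 ± 0.0299 CPM per kb at 5% CO2. EGR1 and CCN2, NR4A2 and IER3, and EGR2 and EGR3 were neighbours that lay closer than the sum of both SDs at each CO2 level. So did NR4A3 and the gene just above it, EGR3 at 10% CO2 and EGR2 at 5% CO2, and IER3 and EGR3 at 5% CO2. CCN2 made up 56.4 to 61.0% of the summed CPM of the 10 genes at 10% CO2 with LPS and 57.6 to 63.0% at 5% CO2 with LPS, against 5.27 to 8.01% at 10% CO2 and 7.06 to 8.49% at 5% CO2.

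**Figure D3:**
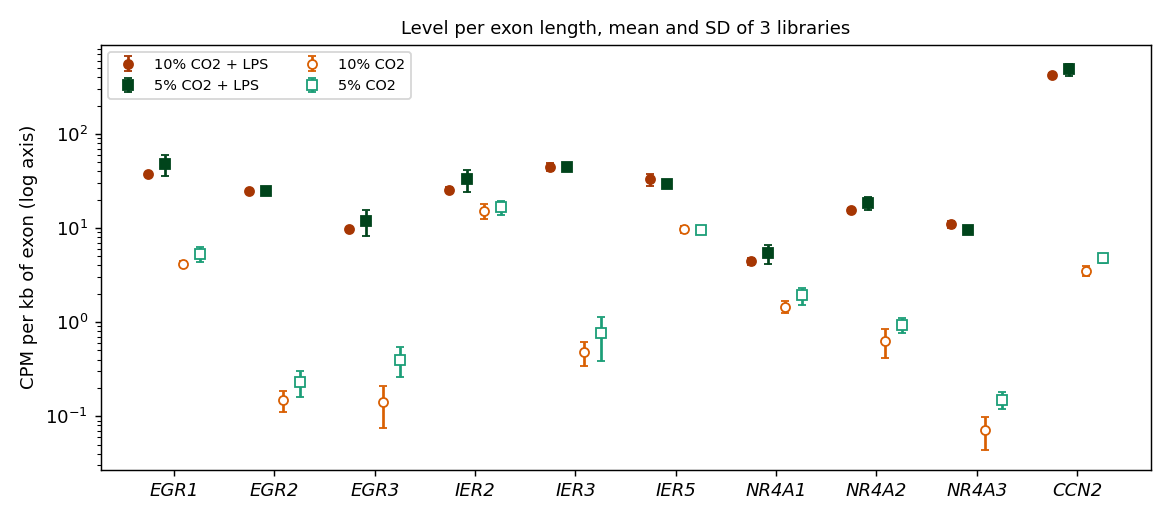
Level per kilobase of exon (CPM per kb, log axis) of each gene, as the mean of 3 libraries with the SD, for the groups with LPS (filled) and without (open). CCN2 stands highest with LPS at 424 and 484 CPM per kb, and IER2 stands highest without it at 15.3 and 16.7 CPM per kb.

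Without LPS, 10% CO2 gave lower values than 5% CO2 for 9 of the 10 genes, but none passed edgeR's test. EGR3, NR4A3 and CCN2 stood out in that every library at 10% CO2 lay below every library at 5% CO2, which held for 10.2% of tested genes. The log2 fold change of EGR3 was −1.44 ± 0.43 (adjusted p = 0.1096), that of NR4A3 −1.05 ± 0.28 (adjusted p = 0.0673) and that of CCN2 −0.44 ± 0.13 (adjusted p = 0.0818). By edgeR's quasi-likelihood test 0 of 10 were called, with 1.46% of all tested genes called. Of the genes, 6 had an unadjusted p under 0.05, all in the lower direction, as did 8.88% of all tested genes. DESeq2 called 3, which were EGR3 (adjusted p = 0.00859), NR4A3 (adjusted p = 0.0391) and CCN2 (adjusted p = 0.0350). Its count is not to be set against edgeR's share. The alternatives that kept all libraries, DESeq2 among them, called 71 to 819 genes here, beside 240 in the analysis as reported. With edgeR, EGR3 passed when 5% CO2 with LPS replicate 2 (adjusted p = 0.0457) or replicate 3 (adjusted p = 0.0316) was left out. NR4A3 (adjusted p = 0.0261) and CCN2 (adjusted p = 0.0421) passed without 10% CO2 replicate 1. The number called over all tested genes also moved, from 0 to 511 with 1 library left out. The median log2 fold change of the 10 genes was −0.51, beside −0.01 over all tested genes, of which 51.9% were negative.

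The remaining values without LPS were −0.35 ± 0.17 for EGR1, −0.62 ± 0.27 for EGR2, −0.12 ± 0.19 for IER2, −0.66 ± 0.34 for IER3, 0.04 ± 0.10 for IER5, −0.40 ± 0.17 for NR4A1 and −0.57 ± 0.22 for NR4A2, on the log2 scale. The low-level genes have wide errors here: EGR2, IER3 and NR4A3 had 6 to 32 counts per library at rest, and EGR3, which had the largest SE of the 10, had 10 to 49. Their CO2 differences are therefore less firmly placed than those of IER2 and IER5, which were measured at 37.1 to 57.1 CPM.

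With LPS present, the CO2 groups overlapped for 9 of the 10 genes. The exception was NR4A3, at 63.0 to 74.4 CPM at 10% CO2 and 58.2 to 61.7 CPM at 5% CO2, a log2 fold change of 0.22 ± 0.10 (adjusted p = 0.185). Not overlapping in the higher direction held for 16.2% of tested genes. By edgeR 0 of 10 were called, with 8.75% of all tested genes called, and DESeq2 also called 0. An unadjusted p under 0.05 was reached by 2 genes, EGR1 (−0.34 ± 0.15) and NR4A3, and by 24.9% of all tested genes. The median was −0.23 beside −0.01 over all tested genes, and 7 of the 10 were negative. EGR2 (−0.01 ± 0.10) and IER3 (0.01 ± 0.14) had values closest to 0. Without 5% CO2 with LPS replicate 3, EGR1 (−0.51, adjusted p = 0.0191) and IER2 (−0.53, adjusted p = 0.0383) passed. With 1 library left out, 271 to 1804 genes were called over all tested genes, beside 1435 with all libraries.

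**Figure D4:**
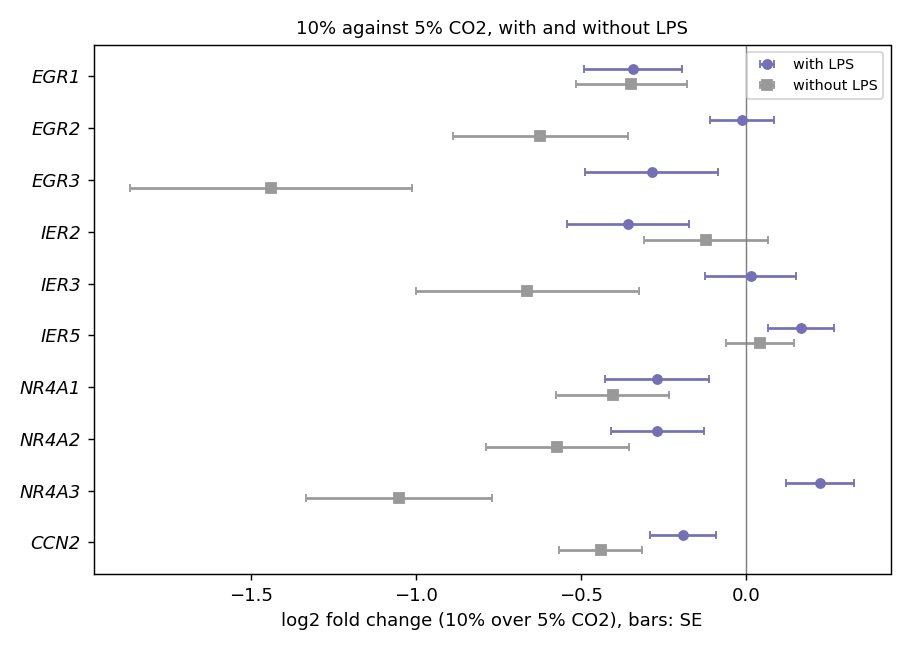
Log2 fold change of 10% over 5% CO2 for each gene (horizontal axis), with LPS (circles) and without (squares), with bars for the standard error of the fit. EGR3 at −1.44 and NR4A3 at −1.05 lie farthest to the left without LPS, and no single comparison passed the test.

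Averaged over both LPS states, 4 of the 10 genes fell at 10% CO2, where 8.69% of all tested genes did. CCN2 fell by 0.32 on the log2 scale (SE 0.08, adjusted p = 0.0127), EGR3 by 0.86 (SE 0.24, adjusted p = 0.0250), NR4A2 by 0.42 (SE 0.13, adjusted p = 0.0335) and EGR1 by 0.35 (SE 0.11, adjusted p = 0.0454). NR4A1 (−0.34 ± 0.12, adjusted p = 0.0565) and NR4A3 (−0.41 ± 0.15, adjusted p = 0.0668) did not pass, and IER5 was the only positive value (0.11 ± 0.07, adjusted p = 0.338). DESeq2 called 5 of the 10. The alternatives that kept all libraries, DESeq2 among them, called 2646 to 3520 genes for this average in either direction. The analysis as reported called 2748 of 16402 in either direction. This average uses the same libraries as the single CO2 comparisons and adds no sample to them.

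The call of CCN2 held in all 19 alternatives run for the average, with adjusted p at most 0.0438. That of EGR3 was lost without 5% CO2 replicate 2, 10% CO2 replicate 1 or 10% CO2 replicate 2 (adjusted p = 0.0731 to 0.0919). NR4A2 lost its call when any of 9 libraries was left out, that is any but 5% CO2 replicate 2, 5% CO2 with LPS replicate 3 and 10% CO2 replicate 3 (adjusted p = 0.0549 to 0.107). EGR1 lost it without any of 10 libraries, that is any but replicate 3 at 5% CO2 with and without LPS (adjusted p = 0.0673 to 0.119), and after a correction for GC content (adjusted p = 0.0999). Other genes passed when a library was left out: NR4A1 without replicate 3 of 5% CO2 with or without LPS, or of 10% CO2 (adjusted p = 0.0142 to 0.0375), IER3 without 5% CO2 replicate 3 (adjusted p = 0.0245), NR4A3 without 10% CO2 replicate 1 (adjusted p = 0.0246) and IER2 without 5% CO2 with LPS replicate 3 (adjusted p = 0.0432). The number called over all tested genes moved as well, from 1664 to 3005 with 1 library left out, beside 2748 with all. As given above, 10% CO2 libraries had more mitochondrial counts. With mitochondrial genes removed from the tables the same 4 genes were called, CCN2 at −0.30, EGR3 at −0.85, NR4A2 at −0.41 and EGR1 at −0.33. The removal takes out only those genes' counts. Any other difference that goes with the mitochondrial share was not tested. The summed T cell markers were also lower at 10% CO2, at 0.837 to 1.06 CPM with LPS against 1.56 to 2.22 CPM at 5% CO2 with LPS, and at 0.751 to 1.27 CPM against 1.67 to 1.93 CPM without LPS. Of that list only TRAC had a mean above 1 CPM (1.20 CPM), with CD3D, CD3E, CD3G and CD2 at 0.0910, 0.0169, 0.0626 and 0.00839 CPM, and its part in the CO2 values was not tested.

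The interaction, which asks whether LPS raised a gene more at 10% than at 5% CO2, was called for 0 of the 10 genes by edgeR and for 0 by DESeq2, with 0.0244% of all tested genes called by edgeR. An unadjusted p under 0.05 was reached by EGR2, EGR3 and NR4A3, 3 of 10, and by 6.03% of all tested genes. NR4A3 had the largest value, 1.28 ± 0.30 on the log2 scale (unadjusted p = 0.000453, rank 37 of 16402, adjusted p = 0.2001), followed by EGR3 at 1.16 ± 0.48 (adjusted p = 0.775) and IER3 at 0.68 ± 0.36 (adjusted p = 0.874). EGR1 lay closest to 0 at 0.01 ± 0.22, and IER2 was the only negative value at −0.24 ± 0.26. With no low-count filter NR4A3 (adjusted p = 0.0465) and EGR3 (adjusted p = 0.0227) passed. The alternatives that kept all libraries, this one among them, called 1 to 108 genes for the interaction. Resting counts of NR4A3 were 6 to 21 per library, which limits the precision of its value.

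Replicate libraries did not move in parallel for all genes. At 5% CO2 with LPS the coefficient of variation was 25.3% for EGR1, 30.9% for EGR3 and 27.1% for IER2, with replicate 2 highest and replicate 3 lowest in each, against 1.93% for EGR2 and 3.22% for NR4A3 in the same libraries. At 10% CO2 with LPS no gene exceeded 15.4%. Replicate 3 was the lowest library for 8 of the 10 genes at 5% CO2, and for 6 of 10 at 5% CO2 with LPS. EGR1, EGR3 and IER2 deviated by 0.37, 0.44 and 0.39 above and by 0.37, 0.47 and 0.40 below their group mean (log2 CPM) in these 2 libraries at 5% CO2 with LPS.

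**Figure D5:**
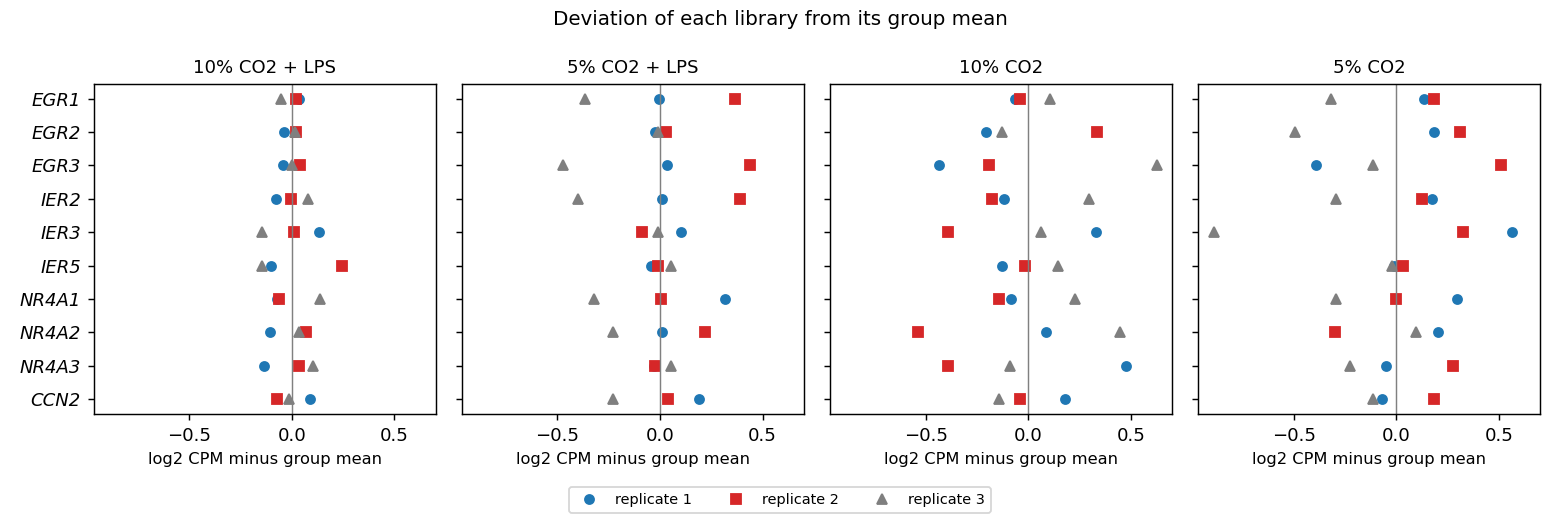
Deviation of each library's log2 CPM from its group mean (horizontal axis, the same in all panels) for each gene, with replicates 1, 2 and 3 as circles, squares and triangles in 4 groups. At 5% CO2 with LPS replicate 2 lies to the right and replicate 3 to the left for EGR1, EGR3 and IER2, while EGR2 and NR4A3 stay near 0.

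The genes whose log2 CPM followed each gene most closely over the 12 libraries were named by Pearson r among 10696 genes of at least 5 CPM. All these values are dominated by the split between libraries with and without LPS, which the points share, and are given as a description. EGR1 was closest to NFIL3 (0.996), PPP1R15A and ADRB1 (both 0.995), and EGR3 to PHLDA1 (0.992), TNF (0.991) and JUNB (0.989). EGR2 was closest to CCL3L3 (0.999), CXCL8 (0.998) and CXCL1 (0.997). IER3 was closest to CXCL8, ICAM1 and DUSP8 (all 0.997), and IER5 to IL23A (0.997), SLC2A6 (0.995) and BTG3 (0.994). NR4A1 had CSRNP1 and MAFF (both 0.992) and NFKBID (0.985) as its nearest genes, and NR4A2 had JUN (0.996), TNF and NFKBIA (both 0.995). NR4A3 lay nearest to BTG2 (0.999), PHLDA1 and C3AR1 (both 0.997), and CCN2 to CCL3L3, NFKBIZ and E2F7 (all 0.999). IER2, with the smallest rise, had the lowest values, with PRDM8 (0.974), COQ10B (0.963) and SESN2 (0.943).

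Among 40 tested genes of a list of other immediate early genes, 27 rose and 6 fell with LPS at 10% CO2, and 29 rose and 5 fell at 5% CO2. Of all tested genes, 16.6% rose and 18.6% fell at 10% CO2, and 11.8% rose and 13.1% fell at 5% CO2. BTG2, an antiproliferative factor, rose by 6.26 ± 0.15 and 5.57 ± 0.14 on the log2 scale, PHLDA1 by 4.10 ± 0.11 and 3.43 ± 0.11, and JUNB, an AP-1 subunit, by 2.70 ± 0.11 and 2.60 ± 0.11, at 10% and at 5% CO2. MYC, a growth regulator, fell by 3.23 (SE 0.11) and 2.74 (SE 0.11). Between CO2 levels without LPS, 0 rose and 3 fell: PHLDA1 (−0.63 ± 0.12, adjusted p = 0.0182), BTG2 (−0.67 ± 0.13, adjusted p = 0.0211) and ZFP36 (−0.46 ± 0.11, adjusted p = 0.0432), an mRNA decay factor. Over all tested genes 0.799% rose and 0.665% fell in that comparison. With LPS, 0 rose and 3 fell: PLK2 (−0.74 ± 0.12, adjusted p = 0.00181), a stress-induced kinase, ZFP36 (−0.51 ± 0.11, adjusted p = 0.00833) and MYC (−0.42 ± 0.10, adjusted p = 0.0195), where 4.29% of all tested genes rose and 4.46% fell. Averaged over LPS, 12 of 40 fell and 0 rose, where 8.69% of all tested genes fell and 8.06% rose, with a median of −0.20 beside −0.01 over all tested genes. FOSB, an AP-1 subunit, was among them (−0.78 ± 0.18, adjusted p = 0.00645).

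Of 19 tested ERK pathway kinases and brakes, 4 rose and 4 fell with LPS at 10% CO2, and 3 rose and 3 fell at 5% CO2. These shares lie near those over all tested genes, of which 16.6% rose and 18.6% fell at 10% CO2, and 11.8% rose and 13.1% fell at 5% CO2. MAP3K8 (TPL2), the kinase that links TLR4 to ERK, rose by 4.51 ± 0.26 at 10% CO2 and by 3.40 ± 0.25 at 5% CO2, and with LPS it was higher at 10% than at 5% CO2 (1.07 ± 0.21, adjusted p = 0.0138). The RAF kinase ARAF was lower there (−0.31 ± 0.08, adjusted p = 0.0276), so that 1 of the 19 rose and 1 fell in that comparison, where 4.29% of all tested genes rose and 4.46% fell. SPRY2, a brake on ERK signalling, fell by 1.20 (SE 0.12) and 1.05 (SE 0.12), while SPRY1, of the same family, rose by 2.22 ± 0.36 and 2.74 ± 0.38 at 10% and at 5% CO2. Of 10 tested co-regulators of EGR and NR4A proteins, 3 rose and 1 fell at 10% CO2, and 2 rose and 0 fell at 5% CO2 with LPS, counts to be read against the same shares of all tested genes (16.6% and 18.6% at 10% CO2, 11.8% and 13.1% at 5% CO2). NAB1, a co-repressor that binds EGR proteins, rose by 2.00 ± 0.10 at 10% CO2 and by 1.52 ± 0.09 at 5% CO2. RXRA, the heterodimer partner of NR4A1 and NR4A2, fell by 0.59 at 10% CO2 (SE 0.11, adjusted p = 0.000478). With LPS, NAB1 was higher (0.43 ± 0.09, adjusted p = 0.00857) and RXRA lower (−0.44 ± 0.11, adjusted p = 0.0232) at 10% than at 5% CO2.

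Serum response factor with its partners and actin-linked targets had 4 rises and 2 falls of 18 with LPS at 10% CO2, and 5 rises and 1 fall at 5% CO2, where all tested genes gave 16.6% and 18.6% at 10% CO2 and 11.8% and 13.1% at 5% CO2. MRTFA, a coactivator of serum response factor, rose by 0.54 ± 0.09 and 0.43 ± 0.09, and the ETS partner ELK3 fell by 1.19 (SE 0.22) and 0.76 (SE 0.21). Of 18 CREB factors, co-activators and targets, 3 rose and 3 fell at 10% CO2, and 1 rose and 2 fell at 5% CO2, close to or below the same shares over all tested genes. PDE4B, a cAMP phosphodiesterase, rose by 4.15 ± 0.16 and 4.17 ± 0.16, and CREB1 itself rose by 0.52 ± 0.10 at 10% CO2. Averaged over LPS, 1 of the 18 genes around serum response factor rose and 4 fell at 10% CO2, and 0 of the 18 around CREB rose and 5 fell, where 8.06% of all tested genes rose and 8.69% fell. The medians of these lists were −0.08 and −0.11, beside −0.01 over all tested genes.

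Among 15 tested genes around YAP, TAZ and TEAD, 3 rose and 3 fell with LPS at 10% CO2, and 3 rose and 2 fell at 5% CO2, near the shares over all tested genes (16.6% and 18.6% at 10% CO2, 11.8% and 13.1% at 5% CO2). TEAD3, a factor that reads the TEAD site, was lower at 10% than at 5% CO2 with LPS (−1.10 ± 0.16, adjusted p = 0.0015) and without it (−0.65 ± 0.15, adjusted p = 0.0425). AJUBA, a regulator of the Hippo pathway, was higher at 10% CO2 with LPS (0.59 ± 0.13, adjusted p = 0.0117). Averaged over LPS, 2 of the 15 rose and 1 fell at 10% CO2, where 8.06% of all tested genes rose and 8.69% fell. The 2 were AJUBA (0.40 ± 0.10, adjusted p = 0.00917) and TEAD4 (0.39 ± 0.13, adjusted p = 0.0446), a factor that reads the same site as TEAD3. TEAD3 alone fell (−0.87 ± 0.11, adjusted p = 0.000158). Of the other 5 CCN genes 2 were tested. CCN1, a relative of CCN2 and also a YAP target, rose with LPS by 0.68 ± 0.18 at 10% CO2 (adjusted p = 0.00501) and by 1.01 ± 0.17 at 5% CO2, beside 6.91 and 6.66 for CCN2. CCN6 was near the limit of detection, at 0.677 ± 0.181 CPM with LPS and 0.231 ± 0.168 CPM without at 5% CO2 (SD, n = 3). It passed there by edgeR (1.55 ± 0.54, adjusted p = 0.0425) and not at 10% CO2 (1.22 ± 0.47, adjusted p = 0.0533), and DESeq2 called 1 of the tested CCN genes at each CO2 level.

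HSF1, its targets and PP2A subunits are the genes through which IER5 is known to act. Of 16 tested, 14 rose with LPS at 10% CO2 and 4 at 5% CO2, with 0 falls. Of all tested genes, 16.6% rose and 18.6% fell at 10% CO2, and 11.8% rose and 13.1% fell at 5% CO2. The interaction was called for 0 of the 16 by edgeR and by DESeq2, so these counts do not show a stronger rise at 10% CO2. EdgeR called it for only 0.0244% of all tested genes, so the lack of calls says little. The median interaction of the 16 was 0.21, beside −0.01 over all tested genes, and 1 of the 16 was negative. An unadjusted p under 0.05 for the interaction was reached by 0 of the 16 and by 6.03% of all tested genes with edgeR. With LPS, 6 of 16 were higher and 0 lower at 10% than at 5% CO2, where 4.29% of all tested genes were higher and 4.46% lower. Among the 6 were HSPD1 (0.69 ± 0.12, adjusted p = 0.00347) and HSPE1 (0.58 ± 0.12, adjusted p = 0.00766), mitochondrial chaperones, DNAJA1 (0.76 ± 0.17, adjusted p = 0.0214) and HSPH1 (1.44 ± 0.31, adjusted p = 0.0238), cytosolic ones. IER5 itself had 0.17 ± 0.10 in that comparison (adjusted p = 0.311).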

How the data were processed

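Each library had 1 deposited table of raw counts of reads per Ensembl gene, laid out as featureCounts writes them, per the file headers. The submitters' processing notes name Trimmomatic 0.36, STAR 2.5.2b, Subread 1.5.2 (with featureCounts) and the GRCh38 build. Neither the strand setting nor the annotation release is given in the sources used here. A reference table gave a symbol to 40907 of 57500 identifiers (71.1%), which held 99.1% of counts.

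Sample titles gave the groups and replicate numbers. The counts were tested with edgeR 4.0.16 (R 4.3.3). After filterByExpr by group (16402 genes) and TMM scaling, a single model with 4 group means was fitted to the 12 libraries, and contrasts were taken with the robust quasi-likelihood test. Calls required an adjusted p (Benjamini-Hochberg, over all tested genes) under 0.05. The biological coefficient of variation was 10.7%. CPM values are TMM-scaled, errors are SD over 3 libraries or SE of the fit, and the test was checked on simulated data. Alternatives were RLE and upper quartile scaling, no low-count filter, DESeq2 1.42.0, the compared groups only, a replicate block, no mitochondrial genes and leaving out each library in turn. For LPS at 10% CO2, same-numbered libraries deviated together (correlations of 0.213 to 0.445). The labels state no pairing, and whether these libraries are paired was not tested. The replicate block changed no call of the 10 genes in that comparison. A GC correction was added after seeing the data.

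The 10 genes, 8 pathway lists and the marker lists were chosen with earlier results of these data known. All 10 are named in every comparison. Of each list, up to 4 called genes with the smallest p could be named, and for pattern likeness the 3 genes with the highest r. Motifs were searched in RefSeq promoter windows of GRCh38.p14. Limits from 3 counts cover counting error only.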

Additional observations from a re-analysis of the deposited data

Results flagged for a closer look

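NR4A3 differed in direction between the LPS states. Every library at 10% CO2 lay above every library at 5% CO2 with LPS, and below every one without LPS. That combination, counted only in the direction seen in NR4A3, held for 44 of 16402 tested genes (0.268%). Neither CO2 comparison of NR4A3 passed edgeR's test (adjusted p = 0.185 with LPS and 0.0673 without). The interaction was 1.28 on the log2 scale with an adjusted p of 0.2001 by edgeR, so the difference between LPS states did not pass either.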

How the results depend on the processing

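All 10 genes were called higher with LPS at both CO2 levels in all 20 alternatives. Of 1180 values of single genes under the alternatives, 1110 kept direction and side of the threshold, 23 no longer passed, 27 newly passed and 20 changed sign. For CO2 without LPS, 240 genes were called in the analysis as reported, 572 with no low-count filter, 701 by DESeq2, 71 with only the compared groups, 699 with the replicate block, 819 after the GC correction and 0 to 511 with 1 library left out. Of the 10 genes, 2 were called with no filter, 3 by DESeq2, 2 with the block (EGR3 and CCN2), 1 after the GC correction (NR4A3) and 0 to 2 with 1 library left out. For CO2 with LPS, 271 to 1804 genes were called with 1 library left out (1435 with all), and of the 10 genes 2 with no filter and 0 to 2 with 1 library left out. For the interaction, 4 genes were called in the analysis as reported, 1 with RLE factors, 2 with upper quartile scaling, 108 with no filter (2 of the 10 genes, EGR3 and NR4A3), 53 by DESeq2, 11 with the block and 1 to 37 with 1 library left out. For CO2 averaged over LPS, 1664 to 3005 genes (2748 with all) and 1 to 6 of the 10 genes were called with 1 library left out.

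Same-numbered libraries correlated from −0.359 to 0.584 in their deviations over 18 pairs, and 12 of the values were over 0.1. All 3 were over 0.1 for 10% CO2 with LPS against 10% CO2 (0.213 to 0.445) and against 5% CO2 (0.151 to 0.537), and there 6 of 6 samples correlated best with their own number. For the comparisons of CO2 levels the lowest values were −0.189 with LPS and −0.359 without, with 2 of 6 samples best with their own number in each. The main model used the numbers as pairing in no comparison, and pairing was not tested. Under the replicate block the LPS calls numbered 6375 at 10% and 4622 at 5% CO2, the CO2 calls with LPS 2121 and the averaged ones 3520, 4 of the 10 genes among them.

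Signs turned for values near 0. The interaction of EGR1 was −0.011 with upper quartile scaling, −0.030 with no filter and −0.16 to 0.20 with 1 library left out. With 1 library left out, the interaction of NR4A1 was −0.033 to 0.31 and that of IER5 −0.0072 to 0.20. For CO2 with LPS, EGR2 was at 0.087 after the GC correction and −0.022 to 0.014 with 1 library left out, and IER3 at −0.0013 with no filter and −0.048 to 0.086. For CO2 without LPS, IER5 was at −0.033 to 0.11. The cause was not tested. Depth limits EGR2, EGR3, IER3 and NR4A3 at rest, where single libraries held few counts.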
